A study of Mus musculus with 24 samples.

Results

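The complement and acute phase genes form a module of 32 gene symbols, 17 of the complement system and 15 of the acute phase response, chosen by name, most of whose proteins are secreted by the liver into blood and take part in innate defence. Probe sets of the array were assigned to them through the gene symbol of the platform annotation. In this way 30 of the 32 were found with 1 probe set each, 15 in each group, out of 19935 genes that could be tested. C3 and Cfd could not be matched by symbol and are not analysed here.

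Livers came from adult male C57BL/6 mice, a wild type strain, with food freely available. The mice had lived for 4 weeks in 12 h of light and 12 h of dim red light, and were then kept in dim red light alone (DR:DR), in which tissue was taken every 3 h on the second cycle. The labels name no altered gene and no agent in any group, so circadian time is the only difference between the groups that they name. Sampling times are circadian times (CT), where by convention CT00 is when the lights used to come on. The subjective day, the rest phase of mice, thus ran until CT12, and the subjective night followed. RNA of each liver was hybridized to its own Affymetrix Mouse Gene 1.0 ST array, with 3 arrays at each of 8 times from CT00 to CT21, or 24 in all. The protocols mention 4 mice per time where tissue collection is described and 3 replicates where RNA extraction is described, and the series text mentions fewer times. The deposited values are log2 values relative to the median of a gene over the 24 arrays. They give differences between arrays and no levels, and the base of the log is not given in the sources used here, so each fold holds for base 2.

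Complement is a set of plasma proteins that bind to microbes and damaged cells, cut each other in a cascade and end in a pore in the target membrane. The lectin pathway starts it from sugars on a surface, the classical pathway from antibody, and the alternative pathway amplifies it. Acute phase proteins are those whose plasma concentration changes in inflammation, when interleukin-6 and interleukin-1 reach hepatocytes and act through STAT3, C/EBP and NF-kB factors. Hepatocytes make most of both groups, while properdin (Cfp) and lipocalin 2 (Lcn2) are also made by macrophages and neutrophils.

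The time labels were checked on clock genes, with fitted peaks at 22.7 h for Arntl, 7.29 h for Nr1d1 and 10.1 h for Dbp. The tissue label was checked on hepatocyte markers. All 8 tested markers, among them Alb, Apob and Cps1, lay in the upper of the 2 brightness classes (8 to 16 on the scale before centring) that can be read from rounding steps in the values. Only 12.7% of all genes lay there, with 0 of 9 Kupffer cell, 0 of 11 neutrophil and 0 of 9 lymphocyte markers. Some markers of other cells lay there too, 2 of 8 endothelial, 2 of 7 stellate cell, 1 of 9 adipocyte and 1 of 1 red blood cell markers. Of the 30 members 24 lay in the upper class. The exceptions were Cfp, Saa1, Saa2, Saa3, Orm2 and Lcn2. The arrays farthest from the mean of their time over all genes were CT09 replicate 3, CT15 replicates 1 and 2, and CT18 replicate 3, and results that change without these 4 are given both ways.

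A gene is said to have a 24 h wave when limma's moderated F test of a cosine and a sine of 24 h gave a Benjamini-Hochberg adjusted p under 0.05 over all 19935 genes. The amplitude is the height of the fitted wave above its middle on the log2 scale, with its standard error (SE), and the fold runs from trough to peak. Of all genes 13.8% were called in this way, and 34.3% of those in the upper brightness class. Among the 15 complement genes 3 (20%) were called, namely Mbl1, C2 and C8b. Among the 15 acute phase genes 5 (33.3%) were called, namely Apcs, Saa4, Steap4, Crp and Itih3. Within the upper class this was 3 of 14 complement genes (21.4%) and 5 of 10 acute phase genes (50%). The counts of the whole groups are thus a few genes away from the background, and nothing particular to either group can be read from them.

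The recognition molecules of the lectin pathway differed from each other. Mbl1 and Mbl2 encode the mannose-binding lectins A and C, which bind sugars on microbes. The arrays of Mbl1 (probe set 10414211) read 0.22, 0.23 and 0.21 at CT00, 0.067, 0.062 and 0.17 at CT03, -0.012, 0.034 and 0.0031 at CT06 and -0.18, -0.19 and -0.35 at CT09. They read -0.30, -0.20 and -0.23 at CT12, -0.45, 0.054 and -0.11 at CT15, -0.0031, -0.11 and 0.15 at CT18 and 0.10, 0.12 and -0.11 at CT21. The 3 arrays of CT00 lay close together and above every array of any other time, and those of CT09 and CT12 were all low. At CT15 replicate 1 was the lowest of all 24 arrays, while replicate 2 lay near the middle. Mbl1 had a wave of 1.34-fold (amplitude 0.21 ± 0.032, SE, n = 24 arrays, adjusted p = 0.000124 by limma's moderated F) with its fitted peak at 24 h ± 0.577, on the border of subjective night and day. As these are whole livers, fewer cells of a type and less RNA per cell cannot be told apart here or in any result below.

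Mbl2 was not called, and its fitted phase was another. Its time means ran from -0.13 ± 0.048 at CT21 to 0.13 ± 0.033 at CT12 (SD, n = 3), and its fitted peak was at 12.1 h (amplitude 0.087 ± 0.036, adjusted p = 0.261, limma). The difference of both genes in each array, Mbl1 minus Mbl2, was tested as 1 of 12 pairs of related members, each added to the fit of all genes. All 12 pairs, here and below, were chosen after the values were seen, and the adjusted p makes no allowance for that choice. The difference Mbl1 minus Mbl2 had an amplitude of 0.30 ± 0.045 with its highest value near CT00 (limma, adjusted p = 0.000114). That call held in all 43 alternatives tried at the same threshold (other fits, and arrays or times left out). Mbl2 itself passed when CT09 replicate 2 was left out (adjusted p = 0.0449) or the whole of CT09 (adjusted p = 0.0407).

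As Mbl1 and Mbl2 are related genes with unlike time courses, the 250 bases before their transcription starts are shown, 5′ to 3′ on the strand of the gene, from the RefSeq promoter table of build GRCm38.p6. Capitals mark the only matches to 10 searched motifs, AGAACA (the core word of glucocorticoid receptor sites) in Mbl1 and AGGTCA (the core word of many nuclear receptor sites) in Mbl2. The sequence of Mbl1 is chr14:41151206-41151455 on the plus strand and that of Mbl2 chr19:30232678-30232927 on the plus strand.
Mbl1: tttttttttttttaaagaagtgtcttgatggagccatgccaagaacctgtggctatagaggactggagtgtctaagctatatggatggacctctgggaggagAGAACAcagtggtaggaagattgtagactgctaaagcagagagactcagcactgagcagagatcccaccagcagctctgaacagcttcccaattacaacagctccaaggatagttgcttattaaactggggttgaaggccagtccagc
Mbl2: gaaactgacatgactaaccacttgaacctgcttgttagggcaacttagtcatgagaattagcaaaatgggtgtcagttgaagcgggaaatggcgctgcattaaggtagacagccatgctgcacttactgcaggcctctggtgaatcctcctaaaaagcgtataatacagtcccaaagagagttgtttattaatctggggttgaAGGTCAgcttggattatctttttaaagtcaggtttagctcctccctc

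Aligned over their full length with gaps allowed, 104 of the 250 bases (41.6%) are equal. Gaps raise such a share, and no unrelated promoters were aligned for comparison. Over all 27025 promoters of the table AGAACA was found in 16.2% and AGGTCA in 13.8%, on either strand, so both are common words. A match is a description of letters and no evidence that a factor binds.

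The serine proteases that ride on these lectins, encoded by Masp1 and Masp2, leaned in opposite directions without either passing on its own. Masp2, whose product cleaves C4 and C2, was highest at CT21 (0.14 ± 0.043) and CT18 (0.13 ± 0.080) and lowest at CT09 (-0.069 ± 0.059, SD, n = 3 each). Masp1, whose product activates MASP-2, was highest at CT09 (0.068 ± 0.10) and lowest at CT21 (-0.11 ± 0.033). The fitted peaks were 19.8 h for Masp2 (adjusted p = 0.105, limma) and 9.19 h for Masp1 (adjusted p = 0.113). The difference Masp1 minus Masp2 was called, with an amplitude of 0.14 ± 0.031 and a peak at 8.46 h (adjusted p = 0.0104, limma). This pair too was chosen after the values were seen, so its p is no independent evidence of opposite phases. Without CT09 the adjusted p of the difference was 0.066, without CT18 0.0535 and without CT21 0.157. Masp1 itself passed without CT00 replicate 3 (adjusted p = 0.0488), and Masp2 without CT06 replicate 3 (0.0446), CT00 (0.0156) or CT06 (0.0317).

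**Figure D1:**
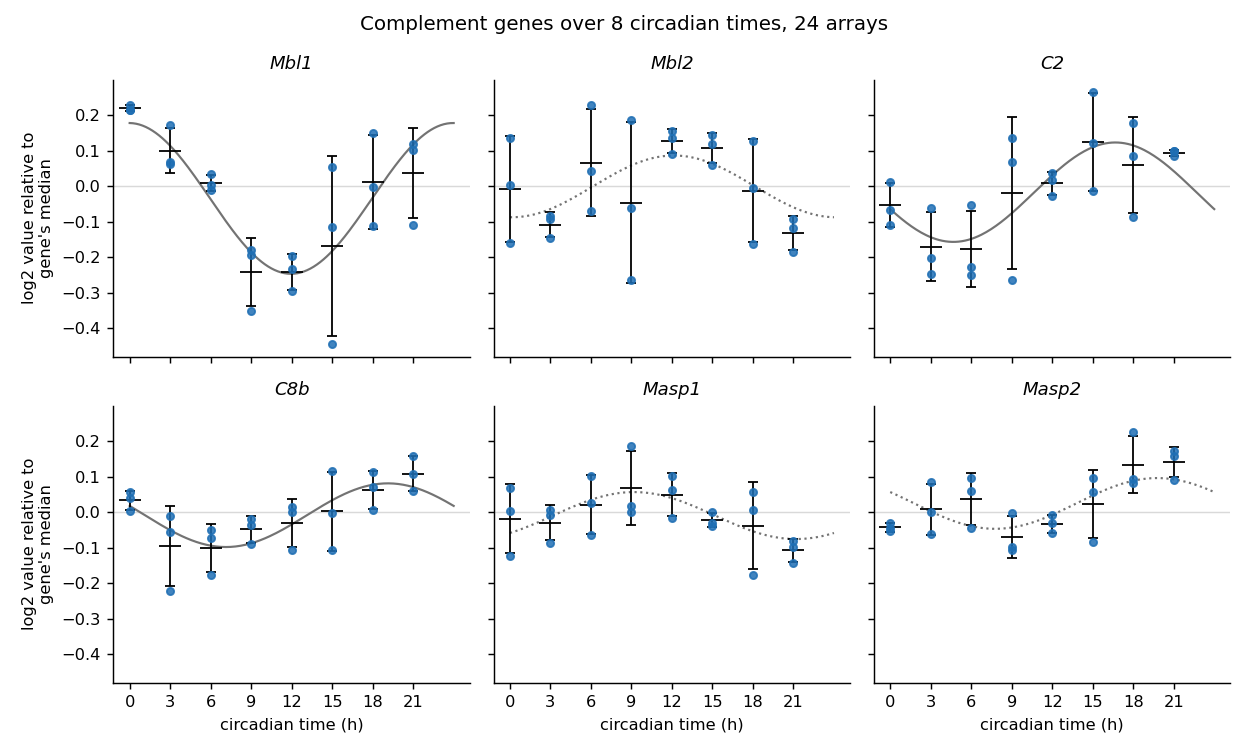
Values of 6 complement genes (log2 relative to the median of the gene) against circadian time in h, with a point for each of 3 arrays a time, a bar and whiskers for mean and SD, and the fitted 24 h wave, solid where called and dotted where not. Mbl1 is high at CT00 and low at CT09 and CT12, while Mbl2 has its highest mean at CT12, and C2 and C8b have their lowest means at CT06.

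Of the genes for the enzymes that make the C3 convertases, C2 was called and Cfb was not. C2 serves the classical and lectin pathways, and Cfb (factor B) is its counterpart in the alternative pathway. Both genes lie next to each other on chromosome 17. The arrays of C2 (probe set 10450344) read 0.013, -0.11 and -0.066 at CT00, -0.20, -0.25 and -0.062 at CT03, -0.054, -0.23 and -0.25 at CT06 and 0.069, 0.14 and -0.27 at CT09. They read 0.037, -0.027 and 0.016 at CT12, -0.013, 0.26 and 0.12 at CT15, 0.086, -0.086 and 0.18 at CT18 and 0.10, 0.098 and 0.084 at CT21. The means were lowest at CT03 and CT06 and above the gene's median from CT12 to CT21, with CT09 replicate 3 the lowest array of all, far below the other two of its time. The wave of C2 was 1.21-fold (amplitude 0.14 ± 0.031) and peaked at 16.7 h ± 0.841 (adjusted p = 0.00714, limma). The call was lost without CT03 (adjusted p = 0.0534) or CT06 (0.0581), the low times.

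Cfb ranged over fewer units, from -0.11 ± 0.038 at CT06 to 0.052 ± 0.065 at CT00 (SD, n = 3), with an adjusted p of 0.243 (limma). The same array was the highest of its time for C2 and Cfb at 5 of 8 times, and the lowest at 5 of 8. With 3 arrays a time some such matches arise without any link. Deviations from the mean of the time had a correlation of 0.63 between C2 and Cfb, and of 0.74 between Cfb and Orm2. The difference C2 minus Cfb was called (amplitude 0.10 ± 0.026, adjusted p = 0.0236, limma). It fell short without CT03 replicate 2 (adjusted p = 0.0649), CT15 replicate 2 (0.0599), any of the times CT00, CT03, CT06 and CT18 (0.0603, 0.0892, 0.0597 and 0.0608) or the 4 farthest arrays (0.0806).

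Among the genes of the terminal pathway, whose products build the membrane attack complex, only C8b was called of the 6 measured. It encodes the beta chain of C8, which joins the complex of C5b, C6 and C7. The arrays of C8b (probe set 10506454) read 0.056, 0.040 and 0.0031 at CT00, -0.22, -0.0096 and -0.055 at CT03, -0.050, -0.18 and -0.074 at CT06 and -0.035, -0.091 and -0.019 at CT09. They read 0.0016, 0.016 and -0.11 at CT12, -0.11, 0.11 and -0.0016 at CT15, 0.071, 0.0048 and 0.11 at CT18 and 0.11, 0.059 and 0.16 at CT21. All 3 arrays of CT21, of CT18 and of CT00 were above 0, and all of CT03, CT06 and CT09 below. The wave was shallow at 1.13-fold (amplitude 0.090 ± 0.021), with a peak at 19.1 h ± 0.904 (adjusted p = 0.0132, limma), and it was lost without CT06 (0.0731) or CT21 (0.0991).

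Its neighbour on chromosome 4, C8a, had a similar fitted peak at 17.8 h but did not pass (amplitude 0.076 ± 0.026, adjusted p = 0.142, limma). The difference of both C8 genes gave an adjusted p of 0.728 with an amplitude of 0.032 ± 0.024. C8a passed without CT18 replicate 1 (adjusted p = 0.0356) or without CT18 (0.0475). C6 had one of the larger amplitudes among complement genes, 0.12 ± 0.038, and missed the threshold (adjusted p = 0.111, limma). Its SD between arrays of a time reached 0.27, with arrays of -0.16, 0.37 and 0.050 at CT15. Tested among the genes of the upper brightness class alone, C6 gave an adjusted p of 0.0494. C9, the unit that forms the pore, Hc, which encodes C5, and C8g had amplitudes of 0.081, 0.022 and 0.020 and adjusted p-values of 0.168, 0.871 and 0.882.

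Neither of the inhibitor genes was called. Cfi, the protease that destroys C3b and C4b, and C4bp, its cofactor, had amplitudes of 0.046 and 0.024, with adjusted p-values of 0.457 and 0.855 (limma). A p above the threshold does not show that a gene is constant.

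Of the fitted peaks of complement genes 12 of 15 lay in the subjective night, against 50.3% in all genes, most of them without a called wave. Of the 15 fitted peaks 9 fell between 16 h and 20 h (C2, C6, C8a, C8b, C9, Cfb, Cfi, Cfp and Masp2), a window set after the values were seen. In all genes 17.3% of fitted peaks fell there, among upper-class genes 14.8%, and among acute phase genes 0 of 15. As the window was drawn around the complement peaks, its shares in other genes are description and no test. Only 2 of these 9, C2 and C8b, had a wave that was called. The SE of the other peaks ran from 1.25 h for Masp2 to 4.07 h for Cfp. The members share arrays, and their median over the 15 complement genes was highest in CT18 replicate 3 (0.14), one of the 4 farthest arrays, and lowest in CT03 replicate 1 (-0.10). The part of these arrays in the common peak was not tested. Without the 4 farthest arrays 3 complement genes were called as before.

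**Figure D2:**
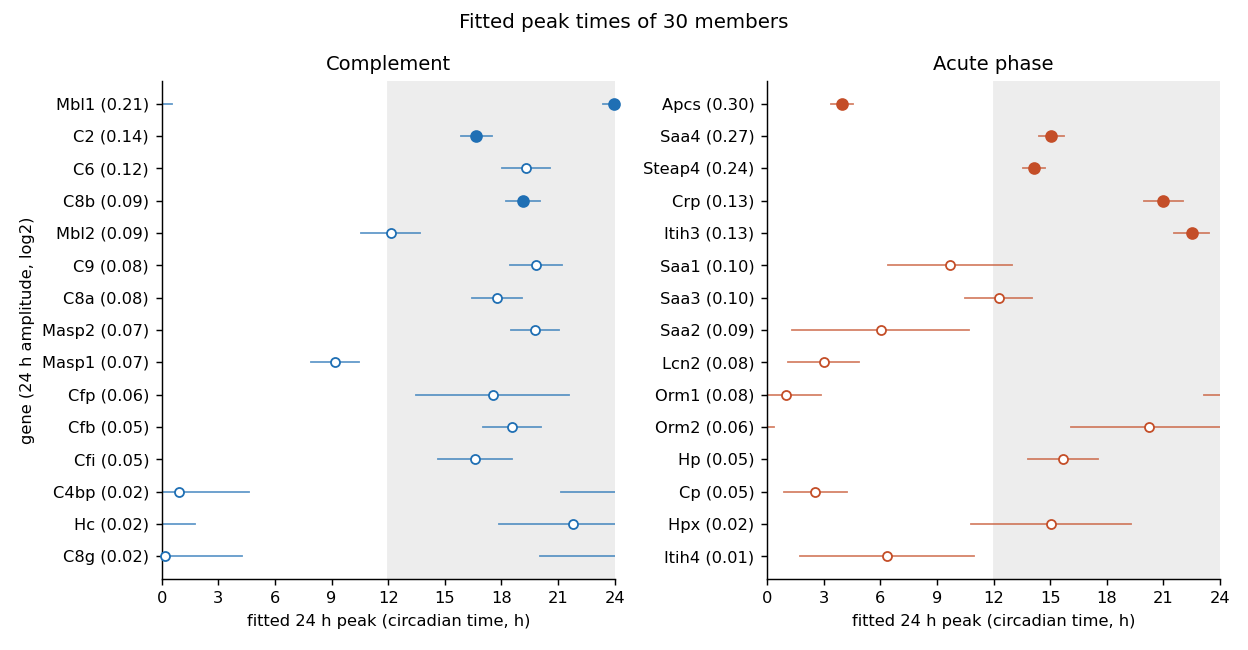
Fitted 24 h peak of each of the 30 genes (circadian time in h, with SE), in order of amplitude, given in brackets on the log2 scale, with filled points for genes called in the 24 h test and the subjective night in grey. Of the complement peaks 9 of 15 lie between 16 h and 20 h, and Apcs is the called gene with a peak in the subjective day.

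Cfp, which encodes properdin, the stabilizer of the alternative convertase, was the one complement gene with very wide scatter. Its arrays read 0.068, -0.022 and -0.14 at CT00, -0.17, -0.060 and -0.027 at CT03, 0.030, -0.29 and -0.20 at CT06 and 0.16, 0.32 and -0.67 at CT09. They read 0.022, -0.32 and 0.054 at CT12, 0.029, -0.34 and 0.38 at CT15, 0.10, 0.062 and -0.15 at CT18 and 0.023, 0.093 and -0.32 at CT21. The arrays of CT09 and of CT15 spread over most of the range of the gene, and no time stood apart. Its SD within times, pooled over the 8 times, was 0.27, at percentile 99.1 of all genes, and only 5.6% of its sum of squares lay between times. The mean of 9 Kupffer cell markers, the liver's macrophages, ranged from -0.54 in CT09 replicate 3 to 0.30 in CT15 replicate 3, the same arrays in which Cfp was lowest and highest. Its highest array of a time was also that of Cfp at 6 of 8 times, and its lowest array at 8 of 8. For endothelial cell and exocrine pancreas markers these counts were 4 and 6 each, for stellate cell markers 5 and 3, and for hepatocyte markers 2 and 2. None of the 9 Kupffer cell markers (0) was called in the 24 h test (limma, 0 also at an unadjusted p under 0.05 and 0 in the test of the 8 times). Clec4f, Vsig4, Cd5l and the others of these 9 all lay in the lower brightness class. The part of Kupffer cells in the scatter of Cfp was not tested.

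The 3 largest waves of the module were those of acute phase genes. The pentraxins, rings of equal chains that bind microbes and dead cells, are encoded by Apcs (serum amyloid P, the main acute phase pentraxin of the mouse) and Crp (C-reactive protein), neighbours on chromosome 1. The arrays of Apcs (probe set 10360328) read 0.34, 0.29 and 0.034 at CT00, 0.26, 0.62 and 0.17 at CT03, 0.37, 0.32 and 0.13 at CT06 and 0.093, 0.27 and -0.011 at CT09. They read 0.0088, -0.37 and -0.24 at CT12, -0.20, -0.045 and -0.42 at CT15, -0.34, -0.12 and -0.0088 at CT18 and -0.014, -0.23 and -0.30 at CT21. All arrays of CT00, CT03 and CT06 were above 0 and all but 1 of those from CT12 to CT21 below. Apcs had the largest amplitude of the 30 genes, 0.30 ± 0.045, or 1.52-fold, with a peak at 3.97 h ± 0.572, early in the subjective day (adjusted p = 0.000112, limma).

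Crp peaked in the night instead. The arrays of Crp (probe set 10351852) read 0.037, 0.021 and 0.11 at CT00, -0.11, 0.051 and -0.021 at CT03, -0.023, -0.097 and 0.11 at CT06 and -0.34, -0.38 and -0.22 at CT09. They read -0.20, -0.023 and -0.035 at CT12, -0.18, 0.13 and 0.16 at CT15, -0.14, 0.043 and 0.24 at CT18 and 0.024, 0.18 and 0.056 at CT21. The 3 arrays of CT09 were low and lay below all of the others, while CT15 and CT18 each spread over both sides of 0. The fitted wave was 1.2-fold (amplitude 0.13 ± 0.036) and peaked at 21 h ± 1.03 (adjusted p = 0.035, limma). It rested on CT09, without which the adjusted p was 0.386 and the amplitude 0.074.

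That call was the least stable of the 8. It was lost without CT00 replicate 3 (adjusted p = 0.0509), CT09 replicate 1 (0.0876), 2 (0.0862) or 3 (0.0728), replicate 2 of CT21 (0.0742), replicate 3 of CT18 (0.0619) or replicate 1 of CT12 (0.0605). The same held without the times CT00, CT03, CT12 or CT21 (0.071, 0.0624, 0.0668 and 0.0973), without the 4 farthest arrays (0.104) and without moderation (0.0559). The difference of the pentraxins, Apcs minus Crp, was firmer, with an amplitude of 0.36 ± 0.059 and a peak at 5.38 h (adjusted p = 0.000343, limma, called in all 43 alternatives).

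The promoters of both pentraxin genes are shown because the waves of these neighbours differed in phase. They are the 250 bases upstream of the start, with matches in capitals. In Apcs (chr1:172895055-172895304, minus strand) these are TTCTAGGAA, a match to the STAT word TTCNNNGAA at positions -244 to -236 from the start, and TGTTCT, the reverse complement of AGAACA. In Crp (chr1:172697806-172698055, plus strand) they are TGTTCT and, at -31 to -26, a TATA box (TATAAA).
Apcs: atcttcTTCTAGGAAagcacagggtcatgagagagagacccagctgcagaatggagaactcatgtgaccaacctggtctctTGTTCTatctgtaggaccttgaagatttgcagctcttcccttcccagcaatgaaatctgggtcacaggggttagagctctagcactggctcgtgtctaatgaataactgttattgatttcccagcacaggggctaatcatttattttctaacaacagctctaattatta
Crp: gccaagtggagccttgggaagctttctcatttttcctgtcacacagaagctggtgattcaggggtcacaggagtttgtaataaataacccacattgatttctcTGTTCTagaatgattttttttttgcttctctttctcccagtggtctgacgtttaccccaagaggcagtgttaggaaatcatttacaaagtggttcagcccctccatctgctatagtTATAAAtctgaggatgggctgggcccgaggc

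The STAT word occurs in 7.18% of all promoters of this length and TATAAA in 13%. Aligned with gaps allowed, 98 of 250 bases (39.2%) are equal between Apcs and Crp.

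The serum amyloid A genes, whose products are apolipoproteins carried on high-density lipoprotein, lie side by side on chromosome 7. Saa1, Saa2 and Saa3 are known as the inducible forms and Saa4 as the constitutive one. The arrays of Saa4 (probe set 10563602) read -0.25, -0.16 and -0.065 at CT00, -0.40, -0.37 and 0.047 at CT03, -0.38, -0.25 and 0.0060 at CT06 and -0.069, -0.19 and -0.0060 at CT09. They read 0.18, 0.24 and 0.30 at CT12, 0.13, 0.70 and 0.21 at CT15, 0.095, -0.082 and 0.26 at CT18 and 0.036, 0.092 and -0.15 at CT21. Every array of CT12 and CT15 was above 0.1, CT15 replicate 2 stood far above the rest, and of the 12 arrays from CT00 to CT09 all but 2 were below 0. Saa4 had a 1.45-fold wave (amplitude 0.27 ± 0.046) with its peak at 15.1 h ± 0.655 (adjusted p = 0.000563, limma), and it was called in all 43 alternatives.

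Saa1 and Saa2 varied more between mice of 1 time than almost any other gene, and no wave was called. The arrays of Saa1 read 0.26, 0.37 and 0.046 at CT00, -0.30, 0.67 and -0.094 at CT03, 0.26, -0.17 and -0.10 at CT06 and 0.73, 0.71 and -0.22 at CT09. They read 0.44, -0.12 and -0.029 at CT12, 0.056, 0.54 and -0.016 at CT15, 0.47, -0.13 and -0.087 at CT18 and 0.016, -0.21 and -0.25 at CT21. At CT09 replicates 1 and 2 were the highest arrays of all while replicate 3 was among the lowest, so CT09, the time with the highest mean, overlapped every other time. The pooled SD of Saa1 was 0.35, at percentile 99.6 of all genes. Its lowest array of a time was also that of the Kupffer cell markers at 6 of 8 times and its highest at 2 of 8. For the red blood cell marker Alas2 these counts were 7 and 4. The part of these cells in the scatter of Saa1 was not tested.

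The arrays of Saa2 read 0.10, 0.42 and 0.37 at CT00, -0.37, 0.75 and -0.56 at CT03, 0.61, -0.27 and -0.10 at CT06 and 0.37, 0.58 and -0.51 at CT09. They read 0.60, -0.37 and -0.20 at CT12, 0.015, 0.041 and 0.24 at CT15, 0.052, -0.23 and -0.41 at CT18 and -0.046, -0.26 and -0.015 at CT21. At CT03 the arrays differed by up to 1.31, or 2.47-fold, between mice of the same time, more than the fold of any wave among the 30 genes. Its pooled SD of 0.42 lay at percentile 99.8 of all genes. The adjusted p of the 24 h test was 0.805 for Saa1 and 0.91 for Saa2 (limma). The same array was highest for both genes at 5 of 8 times. Their transcripts are nearly the same, so the probe sets may pick up both, and the 2 genes are not separate observations.

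Saa3, which is made mostly outside hepatocytes, was highest at CT15 (0.23 ± 0.17) and lowest at CT21 (-0.13 ± 0.20), and did not pass (adjusted p = 0.359, limma). It did pass without CT00 (0.0468). The difference Saa4 minus Saa3 was called (amplitude 0.21 ± 0.049, adjusted p = 0.013, limma), though not without CT18 (0.0605) or the 4 farthest arrays (0.151). Against Saa1 and Saa2 the difference of Saa4 was not called (adjusted p = 0.192 and 0.193), although its amplitudes, 0.27 ± 0.10 and 0.34 ± 0.13, were larger. Without CT03 replicate 3 the difference from Saa2 passed (0.0457).

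The upstream sequences of 3 of these genes are shown because of these 3 a wave was called in Saa4 alone. This contrast is not firm, as the differences of Saa4 from Saa1 and Saa2 were not called. The scatter of Saa4 within times was also wide, at percentile 94.7 of all genes. Capitals mark matches to the C/EBP word TTGNNCAA and to AGGTCA, here as its reverse complement TGACCT. Saa1 is chr7:46742981-46743230 on the minus strand, Saa2 chr7:46751583-46751832 on the plus strand and Saa4 chr7:46732604-46732853 on the minus strand.
Saa1: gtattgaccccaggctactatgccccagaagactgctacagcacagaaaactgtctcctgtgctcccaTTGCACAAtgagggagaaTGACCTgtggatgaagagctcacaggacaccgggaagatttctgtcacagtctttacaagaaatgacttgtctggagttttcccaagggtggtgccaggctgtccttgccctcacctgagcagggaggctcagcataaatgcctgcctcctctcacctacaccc
Saa2: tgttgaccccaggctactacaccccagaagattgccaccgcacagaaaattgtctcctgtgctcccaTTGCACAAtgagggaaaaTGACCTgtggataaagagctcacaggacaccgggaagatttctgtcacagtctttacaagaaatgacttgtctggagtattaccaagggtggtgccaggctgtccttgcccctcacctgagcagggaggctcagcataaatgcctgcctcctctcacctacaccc
Saa4: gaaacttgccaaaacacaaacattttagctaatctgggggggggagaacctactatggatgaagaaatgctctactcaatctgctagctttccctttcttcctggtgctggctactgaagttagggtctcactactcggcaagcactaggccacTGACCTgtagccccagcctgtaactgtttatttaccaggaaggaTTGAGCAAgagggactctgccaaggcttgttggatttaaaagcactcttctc

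Aligned with gaps allowed, Saa1 and Saa2 share 238 of 250 bases (95.2%), and Saa1 and Saa4 share 103 (41.2%). Each of the 3 holds both words, but in Saa4 they stand closer to the start and in the other order. TTGNNCAA was found in 5.74% of all promoters, and among the 24 members with a promoter in the table in Lcn2, Orm2, Saa1, Saa2 and Saa4. CACGTG, the E-box of the clock factors CLOCK and BMAL1, is in 6.05% of all promoters and in 0 of the 24, as is the D-box TTATGTAA (0.862% of all, 0 of 24), which says only that these letters are not in this window.

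**Figure D3:**
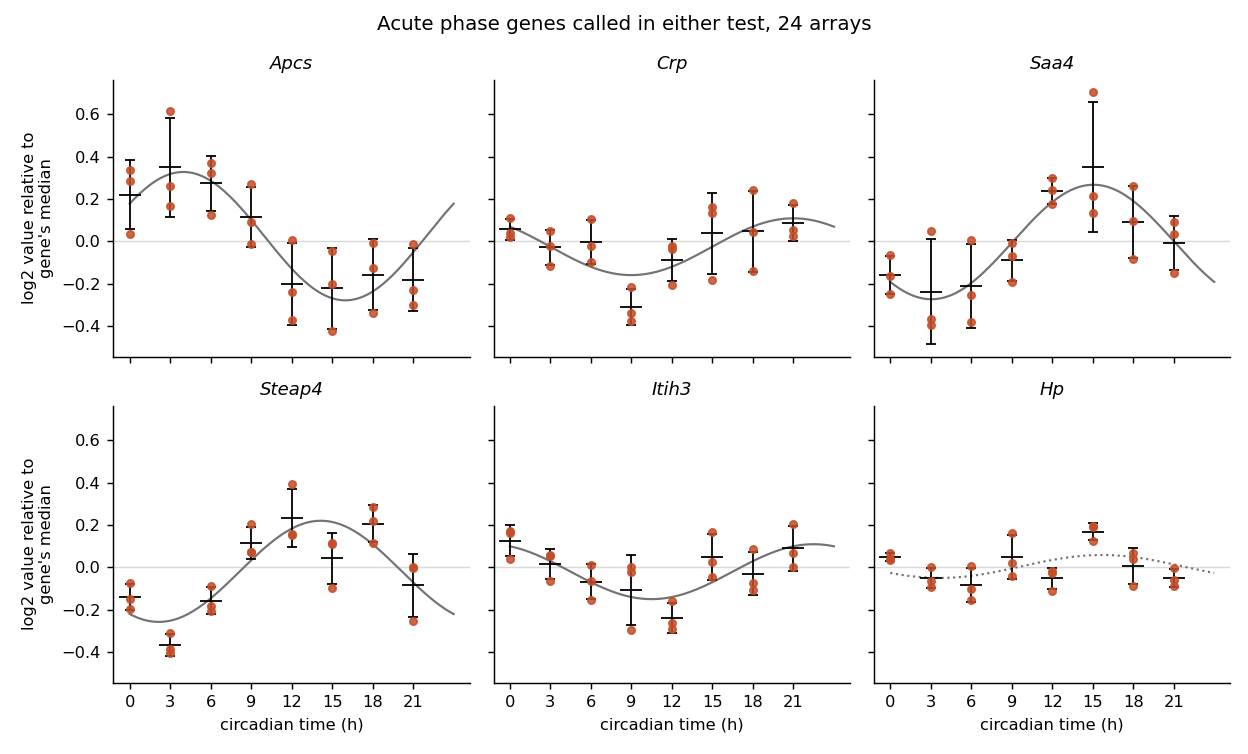
Values of 6 acute phase genes (log2 relative to the median of the gene) against circadian time in h, with a point for each of 3 arrays a time, a bar and whiskers for mean and SD, and the fitted 24 h wave, dotted for Hp, which was called in the test of the 8 times alone. Apcs is high from CT00 to CT06, and Saa4 has its highest means at CT12 and CT15. Steap4 has its highest means at CT12 and CT18, with a lower one at CT15, and Crp has its low point at CT09.

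Of the genes for metal and haem handling Steap4 had the clearest wave. It encodes a ferrireductase of the cell membrane that rises with inflammation and feeding, and is the member that is not secreted. The arrays of Steap4 (probe set 10519497) read -0.15, -0.20 and -0.076 at CT00, -0.40, -0.31 and -0.38 at CT03, -0.18, -0.20 and -0.085 at CT06 and 0.072, 0.072 and 0.20 at CT09. They read 0.39, 0.15 and 0.16 at CT12, -0.096, 0.11 and 0.12 at CT15, 0.22, 0.12 and 0.29 at CT18 and 0.0041, -0.26 and -0.0041 at CT21. The 3 arrays of CT03 lay below those of every other time, and all arrays of CT09, CT12 and CT18 were above 0. The wave was 1.39-fold (amplitude 0.24 ± 0.036) with a peak at 14.2 h ± 0.581 (adjusted p = 0.000134, limma). In the test that the 8 time means are equal it had the smallest adjusted p of the members (0.000161), and 84.9% of its sum of squares lay between times.

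Hp, which encodes haptoglobin, the scavenger of free haemoglobin, was called in the test of the 8 times and not in the 24 h test. The arrays of Hp (probe set 10581605) read 0.034, 0.042 and 0.070 at CT00, -0.091, 0.0024 and -0.065 at CT03, -0.10, -0.15 and 0.0047 at CT06 and 0.019, 0.16 and -0.038 at CT09. They read -0.11, -0.028 and -0.017 at CT12, 0.19, 0.12 and 0.19 at CT15, -0.087, 0.041 and 0.069 at CT18 and -0.057, -0.0024 and -0.087 at CT21. The 3 arrays of CT15 were high together, while those of CT12 were all below 0 and those of CT18 lay on both sides of it. The 8 times differed by limma's F test with an adjusted p of 0.0482, against 0.408 in the 24 h test. The call of the 8 times was close to the threshold. It was lost when any 1 of 19 of the 24 arrays was left out, all but CT06 replicate 3, CT09 replicates 2 and 3, and CT18 replicates 1 and 3 (adjusted p between 0.0293 and 0.143, highest without CT15 replicate 3), and without the 4 farthest arrays (0.101).

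Hpx, the scavenger of haem, also had its highest mean at CT15 (0.091 ± 0.090) but was not called in either test (adjusted p = 0.888 and 0.382, limma). Cp, the copper-carrying ferroxidase ceruloplasmin, ranged from -0.041 ± 0.050 at CT21 to 0.093 ± 0.027 at CT00, with an amplitude of 0.047 ± 0.020 (adjusted p = 0.313, limma). Lcn2 withholds iron from bacteria by binding their siderophores. Its time means ran from -0.039 ± 0.029 at CT18 to 0.17 ± 0.17 at CT03, with an adjusted p of 0.424 (limma) and a pooled SD at percentile 92. The mean of 11 neutrophil markers, cells rich in this protein, ranged from -0.13 to 0.10, with 0 of 11 called in the 24 h test (1 at an unadjusted p under 0.05) and 1, Mpo, in the test of the 8 times. The same array was highest for Lcn2 and for these markers at 5 of 8 times and lowest at 3 of 8. For lymphocyte markers these counts were 4 and 5, for Kupffer cell markers 4 and 3, and for Alas2 0 and 2. The agreement was thus not particular to neutrophil markers, and the part of neutrophils in the scatter of Lcn2 was not tested.

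The genes of the inter-alpha-trypsin inhibitor family differed from each other too. Itih3 encodes a heavy chain that stabilizes hyaluronan in the matrix, Itih4 a related plasma protein, and both are neighbours on chromosome 14. The arrays of Itih3 (probe set 10418434) read 0.17, 0.16 and 0.041 at CT00, 0.059, 0.053 and -0.065 at CT03, 0.013, -0.062 and -0.15 at CT06 and 0.00020, -0.022 and -0.30 at CT09. They read -0.16, -0.26 and -0.29 at CT12, 0.17, 0.024 and -0.044 at CT15, -0.071, -0.11 and 0.086 at CT18 and 0.21, -0.00020 and 0.066 at CT21. The arrays of CT12 were low together and below all 3 arrays of CT00, and CT09 replicate 3 was the lowest of all. The wave was 1.2-fold (amplitude 0.13 ± 0.031) with a peak at 22.5 h ± 0.909 (adjusted p = 0.0138, limma). Without CT00 the adjusted p was 0.0764 and without CT12 0.183.

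Itih4 was among the steadiest genes measured, with a pooled SD of 0.039 (percentile 3.26) and an amplitude of 0.013 ± 0.016 (adjusted p = 0.905, limma). The difference Itih3 minus Itih4 was called (amplitude 0.14 ± 0.030, adjusted p = 0.00628), though not without CT12 (0.0759).

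Orm1 and Orm2 encode the orosomucoids, acid glycoproteins that carry drugs and steroids. Neither was called (adjusted p = 0.416 and 0.882, limma). The time means of Orm1 ran from -0.19 ± 0.18 at CT15 to 0.011 ± 0.057 at CT03. Its amplitude was 0.082 ± 0.040 and its pooled SD 0.16. The arrays of Orm2 read 0.15, 0.032 and -0.29 at CT00, -0.20, -0.14 and 0.012 at CT03, 0.20, -0.41 and -0.29 at CT06 and 0.39, 0.16 and -0.57 at CT09. They read 0.022, -0.32 and -0.035 at CT12, -0.22, 0.040 and -0.27 at CT15, 0.064, 0.029 and -0.012 at CT18 and 0.18, 0.047 and -0.13 at CT21. CT09 held both its highest and its lowest array, and all times overlapped. The same array was highest for Orm1 and Orm2 at 6 of 8 times. Their sequences are close, so their probe sets may share signal. The lowest array of Orm2 was also the lowest of the mean of the Kupffer cell markers at 7 of 8 times, with CT09 replicate 3 the lowest of all 24 for both, while the highest array was shared at 4 of 8. The 1 red blood cell marker measured, Alas2, shared the highest array with Orm2 at 6 of 8 times and the lowest at 6 of 8. Its value ranged from -0.25 in CT09 replicate 3 to 0.32 in CT09 replicate 1, the arrays in which Orm2 was lowest and highest. The part of either cell type in the scatter of Orm2 was not tested.

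**Figure D4:**
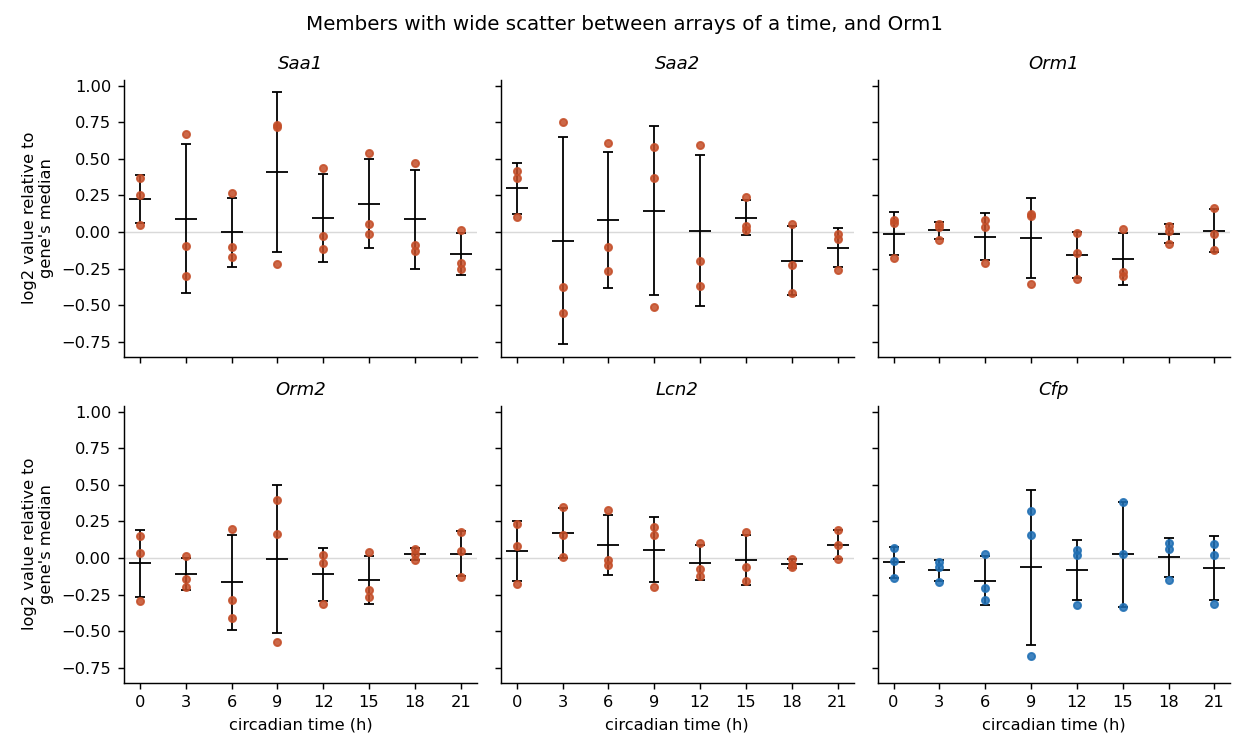
Values of 6 genes (log2 relative to the median of the gene) against circadian time in h, with a point for each of 3 arrays a time and a bar and whiskers for mean and SD. In Saa1, Saa2 and Orm2 the 3 arrays of CT09 are farther apart than the means of any 2 times.

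The median scatter between the 3 mice of a time was wider in acute phase genes. The median pooled SD was 0.15 for acute phase genes and 0.085 for complement genes, against 0.10 for all genes. Among acute phase genes 3 of 15 (Saa1, Saa2 and Orm2) and among complement genes 1 of 15 (Cfp) were in the top 5% of all genes, and all 4 lay in the lower brightness class. The 24 members of the upper class had 0 genes in that top 5%, against 239 of the 2537 genes of that class. Some of the 24 came near it, with Saa4 at percentile 94.7, Apcs at 93.6, Orm1 at 90.8 and C6 at 89.6. Of the acute phase genes in the upper class the median pooled SD was 0.10, close to that of all genes. No test was made of these medians. The arrays of the highest time all lay above those of the lowest time in 13 of 15 complement genes and 10 of 15 acute phase genes, against 63.1% of all genes. Within the upper class this was 13 of 14 and 8 of 10, against 73.7% of all genes there.

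**Figure D5:**
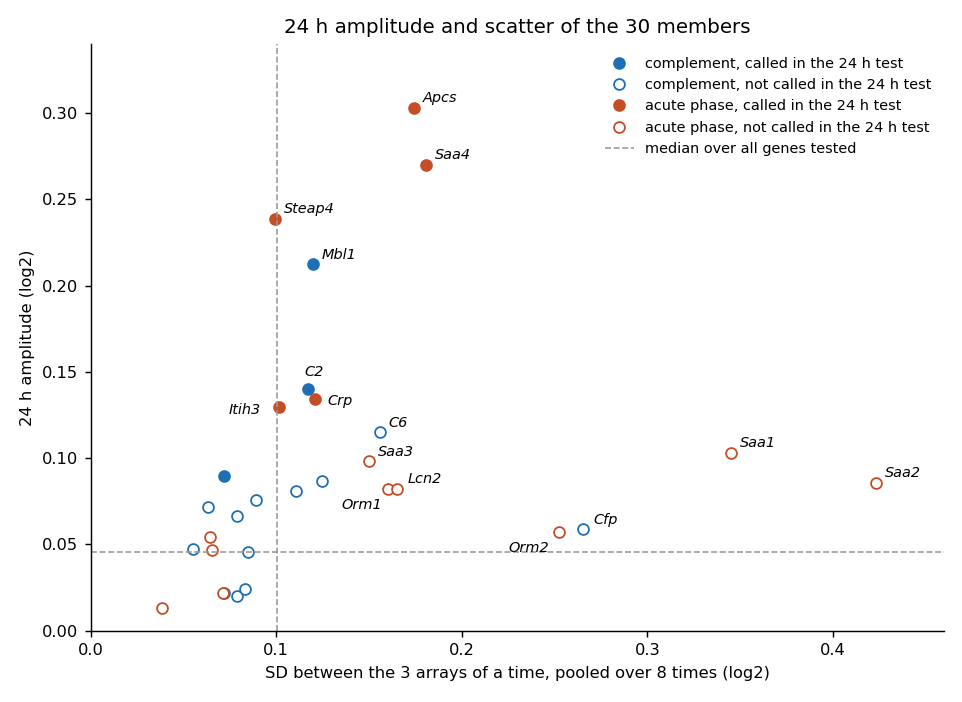
Amplitude of the fitted 24 h wave (log2) against the SD between the 3 arrays of a time, pooled over 8 times (log2), for 15 complement genes in blue and 15 acute phase genes in orange, filled where called, with dashed lines at the medians of all genes. The 8 called genes lie at or above an amplitude of 0.090 with an SD of at most 0.18, and the genes of widest scatter, Saa1 and Saa2, have amplitudes near 0.1.

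The test of equality of the 8 times, which allows any shape, called 10.9% of all genes (26.8% of the upper class). It called 1 complement gene, Mbl1 (adjusted p = 0.00826), and 5 acute phase genes, Steap4, Apcs (0.00725), Saa4 (0.0252), Itih3 (0.048) and Hp (limma). The call of Itih3 was lost without any 1 of 16 of the 24 arrays, all but CT00 replicate 3, CT09 replicates 1 to 3, CT15 replicates 1 and 3, CT18 replicate 3 and CT21 replicate 2 (adjusted p from 0.0247 to 0.139 over all 24). It was also lost without moderation (0.0903), with arrays centred on their medians (0.056) and with quantile normalization (0.052), and that of Saa4 without moderation (0.0783). C2 (0.123 with all arrays) was gained without CT09 replicate 3 (0.0249), without the 4 farthest arrays (0.021) or with array weights (0.0181). Crp (0.0724 with all arrays) was gained without the 4 farthest arrays (0.014), with array weights (0.0116), and without CT15 replicate 1 (0.0166), CT18 replicate 1 (0.0319) or CT18 replicate 3 (0.0466). Masp2 was gained without CT15 replicate 1 (0.0334) or with array weights (0.0221). A 12 h component on top of the 24 h wave was called in 0.577% of all genes and in 0 of the 30 by limma, with 2 at an unadjusted p under 0.05 (Masp2 and Steap4).

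Genes around the module were read from lists of known function. In the signalling that drives acute phase genes 6 of 29 were called (20.7%), against 13.8% of all genes and 34.3% of the upper class. Of these 29 genes 8 lay in the upper class. Il6ra, the receptor of interleukin-6, swung by 1.77-fold with a peak at 12.5 h (adjusted p = 0.000101, limma). Its means were -0.34 at CT00 and 0.62 at CT12. Nfkbia, the inhibitor of NF-kB, peaked at 9.58 h (1.48-fold) and Cebpb at 11.3 h (1.37-fold). Hnf4a peaked at 12.9 h, Stat3 at 4.34 h and the tumour necrosis factor receptor Tnfrsf1a at 3.23 h, with folds of 1.21, 1.17 and 1.13. Myd88, the adaptor of the interleukin-1 receptor, was called in the test of the 8 times and for its 12 h component (adjusted p = 0.0041 and 0.0195, limma).

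Among the complement genes outside the module 1 of 27 tested was called (3.70%), C1rl, a protease like C1r, with a peak at 4.8 h and a 1.18-fold wave (adjusted p = 0.00695, limma). The share over all genes was 13.8%, and 8 of these 27 lay in the upper class. In this list 11 of 27 genes were in the top 5% of scatter, and it holds C1qa and Vsig4, which also serve as Kupffer cell markers. In a list of other acute phase genes, mostly but not all positive ones, 9 of 26 were called (34.6%). Of these 26 genes 20 lay in the upper class, where 34.3% of all genes were called, so the share is that of the background. The smallest p belonged to Mt1 (3.31-fold, peak at 9.14 h) and to the fibrinogen chains Fgg (1.17-fold, 2.3 h) and Fga (1.53-fold, 22.5 h). Of these 9 peaks 7 fell in the subjective day, against 1598 of 2758 among all called genes and 531 of 871 in the upper class. Among the called members of the module Apcs alone peaked there, with Mbl1 on its border. No test was made of these shares.

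Of the negative acute phase genes, which fall in inflammation, 3 of 12 were called (25%), and 11 of the 12 lay in the upper class (34.3% called). They were Serpina6, the carrier of corticosterone (1.67-fold, 13 h), Serpina7, the carrier of thyroxine (2.23-fold, 4.95 h), and Hnf4a. Glucocorticoid-responsive genes were called in 6 of 12 (50%), namely Per1 (2.73-fold, 12.2 h), Fkbp5 (2.68-fold, 14.4 h), Tsc22d3 (1.83-fold, 16.3 h), Mt1, Mt2 and Pck1. Over all genes the share was 13.8%, and 4 of the 12 lay in the upper class. The glucocorticoid list also holds Lcn2, which was not called. The folds of Serpina6, Serpina7 and the 6 called genes of this list were larger than the 1.52 of Apcs, the largest in the module.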

How the data were processed

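The authors deposited log2 values of 28815 probe sets, each relative to the median of its probe set over 24 arrays (row medians within 5e-07 of 0). How they were summarized and normalized is not stated in the sources used here, and base 2 was assumed. RNA was extracted from each liver with RNeasy and biotin labelled, per the labels' protocols. Probe sets with 1 symbol in the platform annotation (21780; 1605 had several and 5430 none) were averaged to 19935 genes. limma 3.58.1 in R 4.3.3 fitted all 24 arrays with moderation over all genes, tested a 24 h cosine and sine, equality of 8 time means, and added 12 h terms, each by F test with Benjamini-Hochberg adjustment over all genes at 0.05. SEs are by the delta method. Tests were checked on simulated data. Brightness classes come from rounding steps (tolerance 0.25 of a step in 95% of differences), with 3902 probe sets in 8 to 16, 24912 in 4 to 8 (which can hold values above 8) and 1 undecided. Arrays give no read depth, and their number limits precision.

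Members and lists were chosen with earlier results of these data known. Named are all members called in the 24 h test or the test of the 8 times, of those called in neither the 5 with the widest scatter and the 3 with the smallest 24 h p in each group, and of each wider list all genes with a called 24 h wave, or 3 where over 6. C9, Cfb, Cfi, Hc, C8a, C8g, C4bp, Mbl2, Hpx and Itih4 were added for their roles, and Myd88, Mpo and Alas2 were chosen after their values were seen. The 12 pair differences, fitted beside all genes (19947 rows), and the window of peaks were chosen after the values were seen. Promoters of 24 of the 30 members were in the RefSeq table and were searched on both strands for 10 motifs: the words spelled out above (glucocorticoid and nuclear receptor, E-box, D-box, STAT, C/EBP and TATA), a ROR word that contains that of nuclear receptors, and the NF-kB and HNF1 words.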

Additional observations from a re-analysis of the deposited data

How the results depend on the processing

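In the 24 h test 5 acute phase and 3 complement genes were called. Leaving out 1 array gave 4 to 5 and 3 to 4, with 2452 to 2874 of all genes against 2758. Leaving out CT12 left 3 acute phase genes, and so did an adjusted p under 0.01 (1680 of all genes). A minimum fold of 1.5 left 1 acute phase gene (Apcs), 0 complement genes and 423 of all genes. With the upper brightness class alone 1055 of all genes were called, since fewer genes were tested. Mbl1, Apcs, Saa4 and Steap4 were called in each of the 43 alternatives that kept the threshold and set no minimum fold, and the losses of C2, C8b, Itih3 and Crp are given above. In the test of the 8 times leaving out 1 array gave 3 to 6 acute phase genes against 5 and 1 to 2 complement genes against 1. Without moderation 3 acute phase genes passed. Complement genes numbered 2 without the 4 farthest arrays and 3 with array weights. The replicate block gave 2, adding Masp2 (adjusted p = 0.0427), 6 acute phase genes, adding Crp (0.0124), and 5 and 3 in the 24 h test (2984 of all genes). The labels give the replicate numbers no shared animal, day or batch, and not every same-numbered pair of arrays correlated, so they were not taken as pairs: correlations of deviations ran from -0.399 to 0.498 over 84 same-numbered pairs (median 0.111, against -0.0623 over 168 other-numbered pairs), and 14 of 24 arrays correlated best with an array of their own number, a hint from the data and not the design. The median percentile of scatter ranged over 79.6 to 89.7 for acute phase and 28.4 to 37.2 for complement genes when 1 array was left out. At an adjusted p under 0.01 the signalling list fell from 6 to 3 calls, and at 0.1 the other complement genes rose from 1 to 2. The cause of these shifts was not tested except where stated. Centred values do not show how far above background a gene lies. The times cover 1 cycle, and whether a wave recurs was not observed.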

Other observations

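The highest values of the 30 genes were spread over 15 of the 24 arrays and the lowest over 12. CT03 replicate 1 and CT09 replicate 3 each held the lowest of 24 values for 7 genes, CT15 replicate 1 for 4 and CT09 replicate 2 for 3. CT18 replicate 3 held the highest value for 5 genes, CT15 replicate 2 for 4, and CT03 replicate 2, CT09 replicate 1 and CT15 replicate 3 for 3 each. The median of the 15 acute phase genes was highest in CT09 replicate 2 (0.11) and lowest in CT06 replicate 2 (-0.11), neither of which is among the arrays that held the extremes of the complement median.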
